A study of Mus musculus with 12 samples.

Results

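The chemokine system of mouse epididymal white adipose tissue (eWAT) was read from the 64 genes, of 49315 in the count table, whose symbol names a chemokine ligand (Ccl, Cxcl, Cx3cl1, Xcl1), a chemokine receptor (Ccr, Cxcr, Cx3cr1, Xcr1) or an atypical receptor (Ackr, Ccrl2). The rule used symbols and no measured value, but it was set with earlier results of these data known. By symbol, the 64 genes are 25 CC ligands, 13 CXC ligands, 1 CX3C ligand, 1 XC ligand, 19 receptors and 5 atypical receptors. Among the ligands, GENCODE release M21 lists Ccl19-ps1 and Ccl19-ps3 as unprocessed pseudogenes and Cxcl11 as a polymorphic pseudogene. Of the 64 genes, 49 passed the filter on low counts, among 18702 genes that did. The other 15 were too low to be tested. None of these 15 exceeded 18 counts in any library, 9 stayed at or under 3 counts in every library, and Ccl20 and Ccl21b were at 0 in all 12 libraries, where a count of 0 allows up to 3 counts, or 0.125 to 0.154 CPM (counts scaled to a common depth, the unit used below) depending on the library.

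The RNA came from 12 mice, 3 in each of 4 groups, with 1 library per mouse. All mice were fed a high fat diet (HFD, 60% fat) for 12 weeks and were injected once a week into the peritoneum. Flox mice (miR-181a2b2flox/flox, with both copies of the locus flanked by loxP sites and intact) and KO mice (miR-181a2b2-/-, with the locus deleted in all cells) were given either vehicle or methotrexate (MTX) at 1 mg/kg. MTX is an antifolate used against rheumatoid arthritis, and the study asked how it and the miR-181a2b2 locus act on inflammation and insulin resistance in obese mice. The 4 groups are called flox, KO, flox MTX and KO MTX here, and replicate numbers are those of the sample titles.

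Chemokines are small secreted proteins that guide white blood cells along gradients by binding receptors that couple to inhibitory G proteins. Most inflammatory ligands share receptors, while homeostatic ligands such as Cxcl12 and Cxcl13 have mostly 1 receptor each. Atypical receptors bind ligands without G protein signaling and remove, store or present them. In obese adipose tissue the system is best known for drawing monocytes, which become macrophages, into the fat.

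Depth ranged from 19495310 to 23976469 counts per library. Adipocyte markers were abundant in every library, with a summed level of 9 genes between 9629 and 47782 CPM. The 3 flox libraries also held RNA of another tissue. The 15 epididymal epithelium markers summed to 4533, 12105 and 1467 CPM in flox, against 5.34 to 11.3 in KO, 4.73 to 482 in flox MTX and 1.01 to 12.0 in KO MTX, and the 9 testis germ cell markers summed to 181 to 515 CPM in flox and to at most 11.1 CPM in each of the other 9 libraries. Macrophage markers (15 genes) summed to 759 to 1433 CPM in flox, 5528 to 9786 in KO, 1234 to 6368 in flox MTX and 7226 to 11534 in KO MTX. B cell markers (8 genes) were highest in flox MTX replicate 2 (350.5 CPM) and KO MTX replicate 3 (293 CPM), with the other 10 libraries at or under 141 CPM. In bulk RNA, fewer cells of a type and less RNA per cell cannot be told apart. The targeted locus could not check the labels: the Mir181a-2 precursor had 0 counts in 11 of 12 libraries and 2 in flox MTX replicate 4, and the Mir181b-2 precursor 0 in all.

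**Figure D1:**
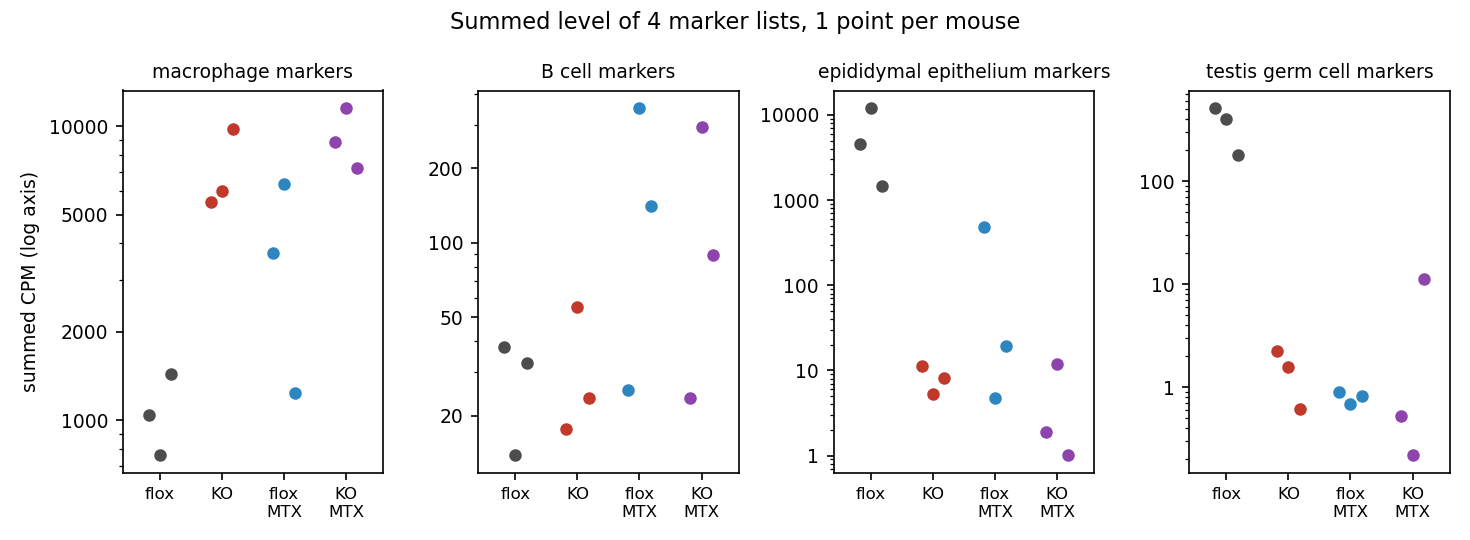
Summed level in CPM on a log axis of the macrophage, B cell, epididymal epithelium and testis germ cell marker lists, with 1 point per mouse in the flox, KO, flox MTX and KO MTX groups. Flox mice held the lowest macrophage sum of 759 CPM and the highest epididymal sum of 12105 CPM, both in replicate 3.

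The deleted locus gives a pair of mature 5p miRNAs, whose sequences from RefSeq (GRCm38.p6) are printed because their shared seed, bases 2 to 8 in capitals, defines the match searched for in the chemokine genes. They lie at chr2:38852741-38852763 and chr2:38853845-38853868 on the plus strand.
miR-181a-5p: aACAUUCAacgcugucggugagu
miR-181b-5p: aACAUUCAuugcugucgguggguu
The letters TGAATGT, which pair with this seed, were found in the 3' untranslated region (UTR) of 3 of the 49 tested chemokine genes (6.12%), against 15.5% of the 15481 tested genes with a coding transcript. Per length, that was 0.0469 matches per kb in the chemokine genes and 0.143 per kb in all. A pair of these stretches is shown with 11 bases on each side and the match in capitals, from GRCm38 with GENCODE release M21: Ccl7 at chr11:82047286-82047314 (plus strand) and Cxcr3 at chrX:101731605-101731633 (minus strand), each written in the direction of the mRNA.
Ccl7: ttggtgtgattTGAATGTaaagctctgga
Cxcr3: gttgtcagcacTGAATGTgcccatctcag
Neither Ccl7 nor Cxcr3 passed the test in KO against flox (values below). The third tested gene with a match is not reported here by name. Nothing is therefore read from Ccl7 and Cxcr3 about genes with a match as a set. A match of letters is a description and not a site that was shown to act.

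By level per length, the mean over 12 libraries was highest for Ccl6 (188 CPM per kb), Ccl9 (127) and Ccl8 (75.7), followed by Ccl11 (33.3) and Cxcl13 (22.4). Ccl6, a rodent ligand of Ccr1, ranked first in each of the 4 groups and held 20.1% of the summed level per length of all 64 genes in flox, 28.1% in KO, 25.4% in flox MTX and 35.7% in KO MTX. Cxcl13 changed its place most among these 5, ranking 13 in flox, 19 in KO, 4 in flox MTX and 6 in KO MTX.

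Summed by role, the ligands and the receptors were lowest in flox, and the atypical receptors were not. CC ligands summed to 225 ± 90.5 CPM (SD, n = 3) in flox, 1084 ± 315 in KO, 689.5 ± 417 in flox MTX and 1456 ± 228 in KO MTX. CXC ligands summed to 140.1 ± 2.20 CPM in flox, 293 ± 23.0 in KO, 279 ± 91.3 in flox MTX and 359 ± 22.3 in KO MTX. These sums follow their most abundant genes, and the flox MTX group spread widest in both. For CC ligands its replicate 4 lay at 229 CPM, inside the flox range of 172 to 329 CPM. For CXC ligands its replicates 1, 2 and 4 lay at 266, 376 and 195 CPM, above the flox range of 138 to 142 CPM. Receptors summed to 73.3 ± 35.4 CPM in flox, 207 ± 44.5 in KO, 194 ± 117 in flox MTX and 297 ± 45.9 in KO MTX. The 5 atypical receptors summed to 68.9 ± 8.61, 66.3 ± 7.67, 66.7 ± 9.58 and 54.8 ± 1.71 CPM in the same order. This sum holds opposite moves. Ackr4 averaged 26.0 CPM in flox, 5.20 in KO, 6.04 in flox MTX and 2.23 in KO MTX. The means of Ackr1, Ackr2, Ackr3 and Ccrl2 were each lowest in flox.

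To learn what deletion of the locus did under vehicle, KO mice were compared with flox mice. A gene was called when its adjusted p in edgeR was below 0.1 and its fold change was at least 1.5. Of the 49 chemokine genes, 19 were called higher in KO (38.8%), against 13.9% of all genes tested, and 4 were called lower (8.16%), against 17.8% of all genes. The values of the 3 KO mice lay above those of the 3 flox mice for 26 of the 49 (53.1%), against 22.8% of all genes. The median log2 fold change was 0.76 in the chemokine genes and -0.06 over all genes. By role, 8 of 17 CC ligands, 5 of 10 CXC ligands, 4 of 15 receptors and 1 of 5 atypical receptors were called higher, in addition to Xcl1. In the same contrast all 15 macrophage markers were called higher (median log2 fold change 2.77) and 8 of 10 tested epididymal markers were called lower, and the part of either in the chemokine values was not tested.

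To learn what MTX did in mice with the locus, flox MTX mice were compared with flox mice. In that contrast 18 of the 49 chemokine genes were called higher (36.7%), against 8.09% of all genes tested, and 3 were called lower (6.12%), against 16.1% of all genes. Under scaling by library size alone, the calls over all genes moved from 1513 higher and 3015 lower to 766 higher and 3607 lower, and those among the chemokine genes to 16 higher and 3 lower. Here receptors made up most of the calls: 11 of 15 receptors were called higher, against 4 of 17 CC ligands, 2 of 10 CXC ligands and none of the 5 atypical receptors, in addition to Xcl1. In this contrast 14 of 15 macrophage markers and 5 of 8 B cell markers were called higher, and 8 of 10 tested epididymal markers were called lower. Both contrasts use the same 3 flox libraries. The 13 genes called in both make up 56.5% of the KO list and 61.9% of the flox MTX list, and since the control mice are shared nothing is read from this overlap.

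The count of 21 in flox MTX against flox rests on single libraries more than the count of 23 in KO against flox. Without flox replicate 3 the first fell to 8 and the second to 18. With the 6 libraries of each contrast fitted alone, the first was 4 and the second 25. Calls over all genes moved as well. In flox MTX against flox they went from 4528 to 2219 without flox replicate 3 and to 2167 with the 6 libraries alone. In KO against flox they went from 5924 to 4832 and to 5942. In KO against flox, 16 of the 23 calls were made in each of the 12 fits that left out 1 library. In flox MTX against flox, 7 of the 21 calls were (Ackr4, Ccl28, Ccl8, Cxcr4, Cxcr6, Xcl1 and Xcr1). With flox MTX replicate 2 and KO MTX replicate 3 left out together, an alternative chosen after their B cell marker sums were seen, 26 chemokine genes were called in KO against flox and 15 in flox MTX against flox. In that fit 6821 and 4708 of all 19450 genes tested were called.

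**Figure D2:**
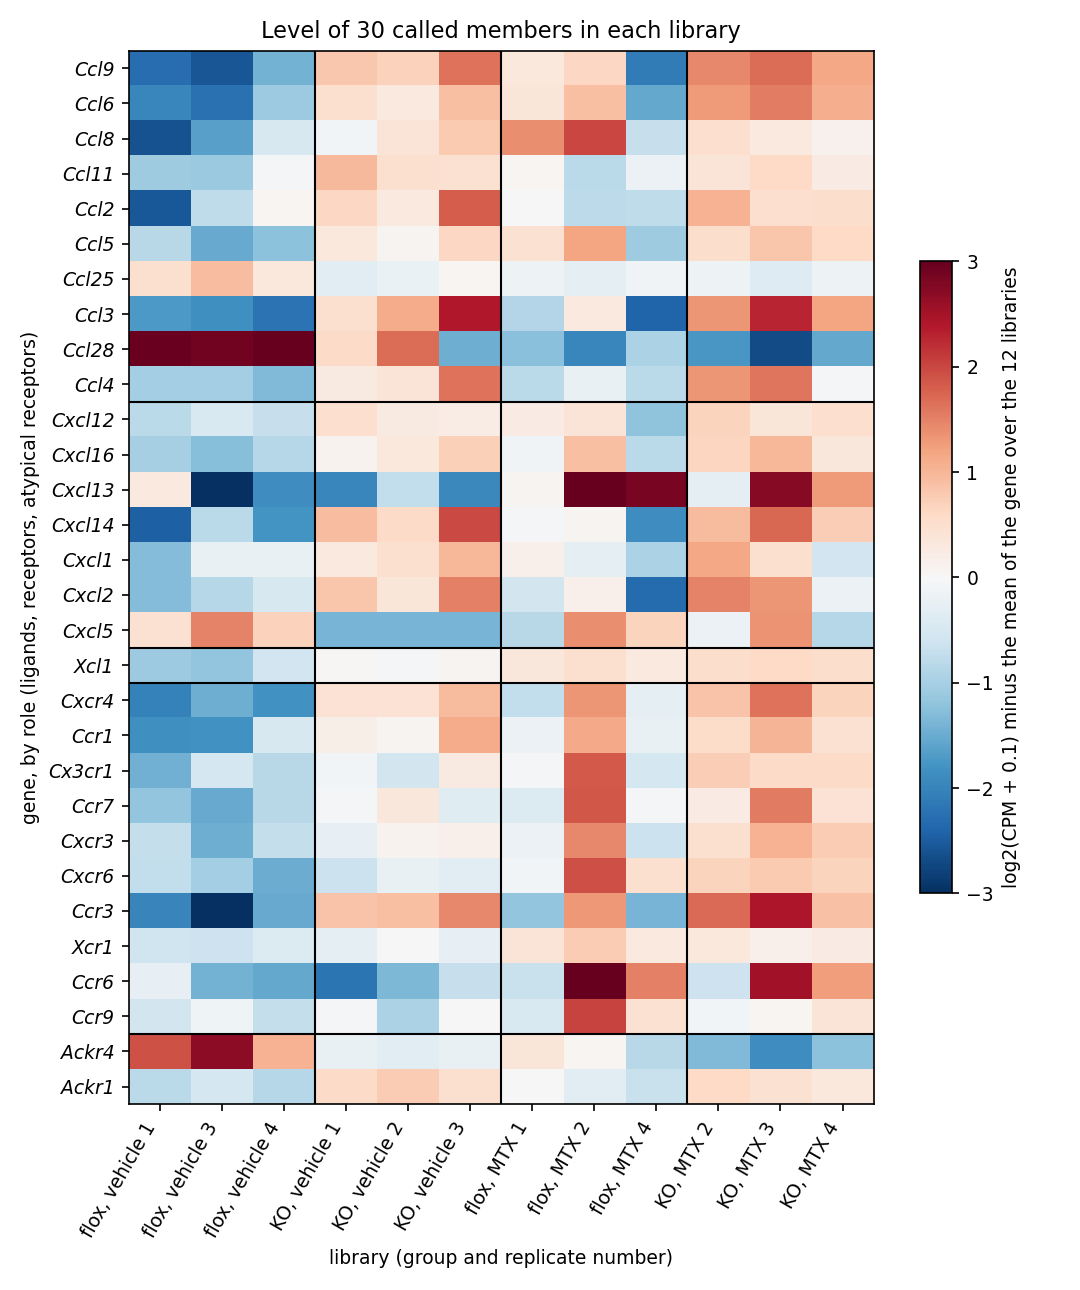
Level of 30 chemokine genes called in KO against flox or in flox MTX against flox, in each of the 12 libraries, as log2(CPM + 0.1) minus the mean of the gene over the libraries, with colors limited at 3 and -3. Rows are ordered by role (CC, CXC and XC ligands, receptors, atypical receptors) and by level. Most ligands were low in the 3 flox libraries and high in KO and KO MTX, while Ccl28, Ccl25 and Ackr4 were highest in flox, and Cxcl13, Ccr6 and Ccr9 were highest in flox MTX replicate 2.

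The 35 ligand and receptor pairs set for this report share genes, so that they are not independent, and both genes were tested for 27 of them. In KO against flox, both genes were called higher in 9 pairs. Among them were Ccl3, Ccl5, Ccl6 and Ccl9 with Ccr1, Ccl11 with Ccr3, and Cxcl12 with Cxcr4. The ligand alone was called higher in 4 pairs, Ccl2 with Ccr2, Cxcl12 with Ackr3, Cxcl16 with Cxcr6 and Xcl1 with Xcr1, and the receptor alone in 1, Ccl24 with Ccr3. In flox MTX against flox, both genes were called higher in 6 pairs, the ligand alone in 1 and the receptor alone in 11. Among the pairs with both genes called were Ccl5, Ccl6 and Ccl9 with Ccr1, Cxcl16 with Cxcr6, and Xcl1 with Xcr1.

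**Figure D3:**
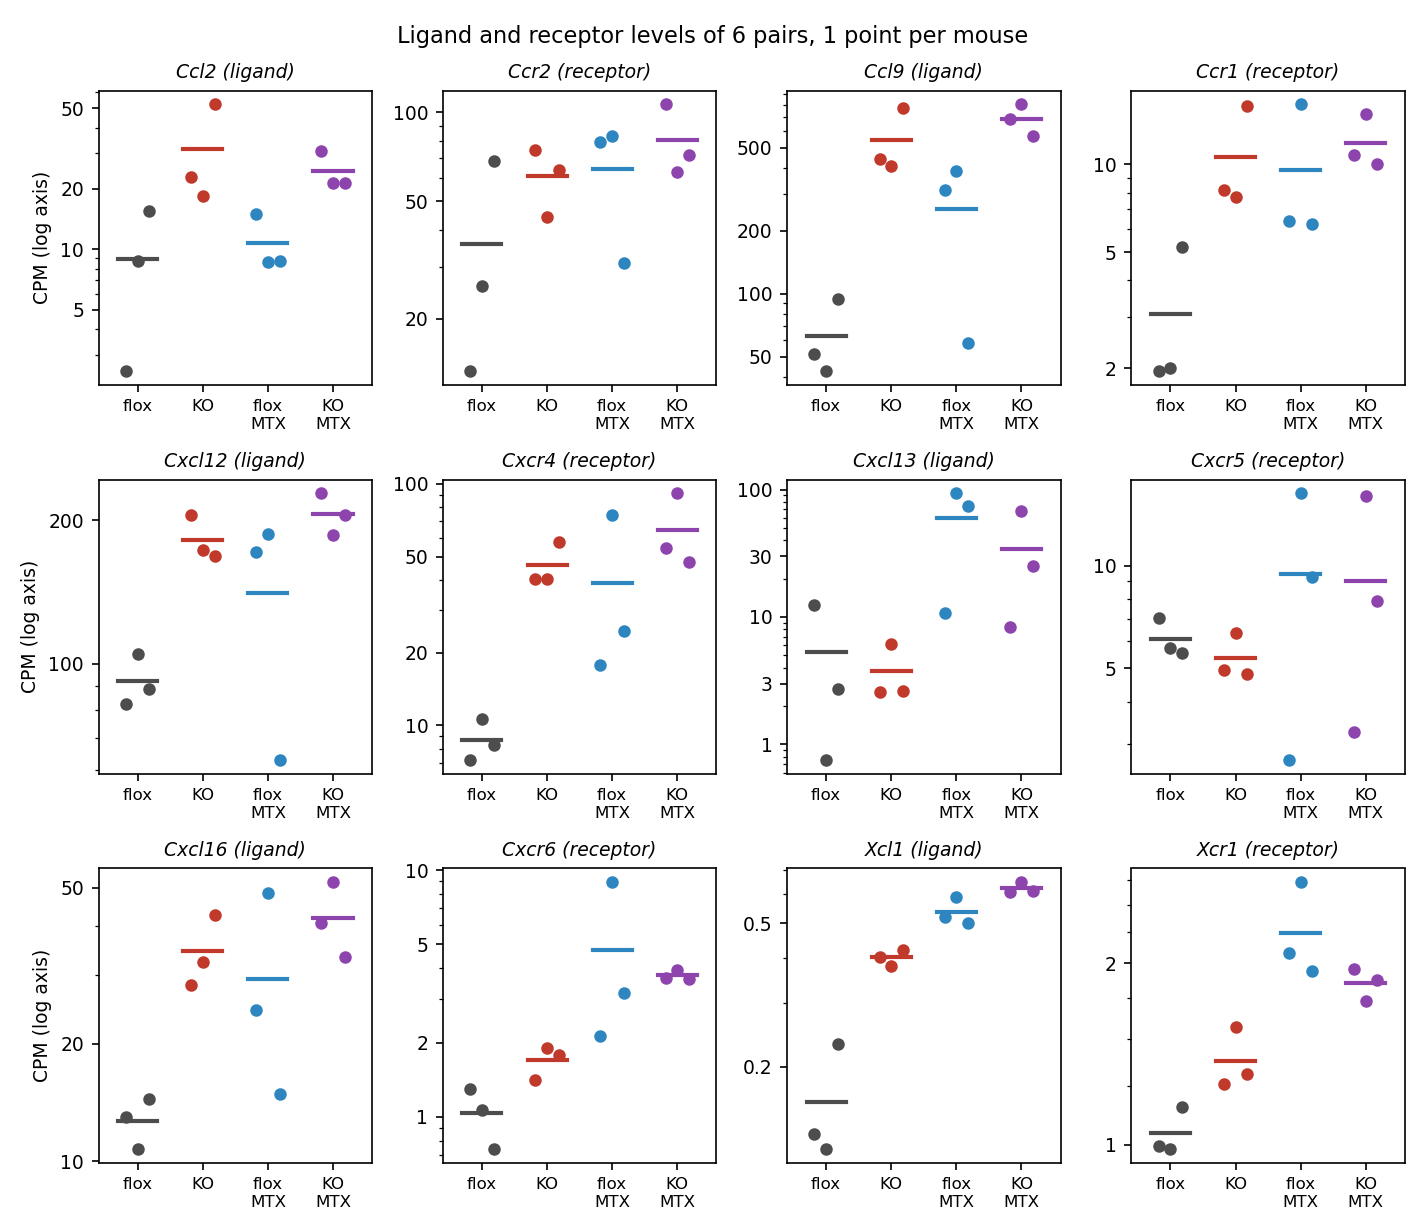
CPM on log axes of the ligand and the receptor of 6 pairs, with 1 point per mouse and a bar at the mean of each group of 3. For Ccl9 and Ccr1 and for Xcl1 and Xcr1 both genes were higher in each KO mouse than in each flox mouse, while for Ccl2 and Ccr2 this held for the ligand alone.

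On the Ccr2 axis, which brings monocytes out of the bone marrow and into tissue, 1 of 3 ligands rose in KO and the receptor did not pass the test. Ccl2, the leading monocyte chemoattractant of fat, was at 2.47, 8.77 and 15.4 CPM in flox, 22.8, 18.4 and 52.6 in KO, 14.9, 8.59 and 8.69 in flox MTX, and 30.7, 21.3 and 21.4 in KO MTX. Flox and KO did not overlap, and flox MTX lay inside the flox range. Ccl2 rose in KO by a log2 fold change of 1.81 ± 0.57 (SE, adjusted p = 0.0346), and without KO replicate 3 the change was 1.22 and was not called (adjusted p = 0.160). Ccr2, its receptor, was at 13.3, 25.8 and 68.6 CPM in flox, 74.3, 44.3 and 63.8 in KO, 79.1, 83.1 and 30.8 in flox MTX, and 107, 62.8 and 71.5 in KO MTX. The flox mice spread over the values of KO and flox MTX, and the log2 fold changes of 0.76 ± 0.53 in KO (adjusted p = 0.306) and 0.85 ± 0.53 in flox MTX (adjusted p = 0.288) were not called. Without flox replicate 4, the KO difference in Ccr2 was 1.65 and was called (adjusted p = 0.0225).

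The other Ccr2 ligands did not separate the groups. Ccl7 was at 1.91, 7.91 and 14.7 CPM in flox, 11.2, 7.50 and 16.7 in KO, 10.5, 11.4 and 6.38 in flox MTX, and 21.3, 8.54 and 9.26 in KO MTX. Ccl12, a mouse relative of Ccl2, was at 0.304, 0.708 and 1.02 CPM in flox, 0.907, 1.40 and 1.59 in KO, 1.51, 1.18 and 0.875 in flox MTX, and 1.35, 1.13 and 0.612 in KO MTX. All 4 groups overlapped for Ccl7, and for Ccl12 flox overlapped each of the other groups.

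Ccl3, Ccl4, Ccl5, Ccl6 and Ccl9, inflammatory ligands of macrophages and T cells, were each called higher in KO, and Ccl6, Ccl9 and Ccl5 also rose in flox MTX. Ccl3 (MIP-1α), a ligand of Ccr1, was at 0.564, 0.511 and 0.369 CPM in flox, 2.97, 4.62 and 11.5 in KO, 1.09, 2.59 and 0.313 in flox MTX, and 5.35, 10.6 and 4.85 in KO MTX. Each KO and KO MTX mouse lay above each flox and flox MTX mouse. Ccl3 rose in KO by 3.70 ± 0.74 on the log2 scale (adjusted p = 0.00492), and its difference of 1.47 ± 0.72 in flox MTX was not called (adjusted p = 0.173). Without flox MTX replicate 4 the latter was 1.93 and was called (adjusted p = 0.0601). Ccl4 (MIP-1β), a close relative of Ccl3, was at 0.477, 0.472 and 0.369 CPM in flox, 1.31, 1.44 and 3.51 in KO, 0.567, 0.909 and 0.563 in flox MTX, and 2.83, 3.47 and 1.05 in KO MTX. Here too each mouse with the deletion lay above each mouse without it. Ccl4 rose in KO by 2.23 ± 0.54 (adjusted p = 0.0105), and its difference in flox MTX was 0.63 ± 0.55 (adjusted p = 0.448).

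Ccl5 (RANTES), which binds Ccr1 and is made by T cells and macrophages, was at 4.43, 2.71 and 3.32 CPM in flox, 9.98, 8.47 and 12.3 in KO, 10.9, 18.1 and 3.75 in flox MTX, and 11.5, 14.2 and 12.1 in KO MTX. Replicate 4 of flox MTX lay inside the flox range and its other mice above it. Ccl5 rose by 1.55 ± 0.44 in KO (adjusted p = 0.0228) and by 1.65 ± 0.44 in flox MTX (adjusted p = 0.0270), the latter not called without flox replicate 3 (1.499, adjusted p = 0.112).

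Ccl6 and Ccl9, rodent ligands of Ccr1 expressed by myeloid cells, were the most abundant of the family. Ccl6 was at 63.1, 52.5 and 117 CPM in flox, 344, 303 and 459.5 in KO, 316, 459.5 and 85.5 in flox MTX, and 597, 714 and 527 in KO MTX. Ccl9 was at 51.9, 42.6 and 94.5 CPM in flox, 443, 411 and 775 in KO, 315, 388 and 58.5 in flox MTX, and 686, 811 and 566 in KO MTX. Both genes had the same order of libraries within flox MTX, with replicate 4 inside the flox range. Ccl6 rose by 2.25 ± 0.51 in KO (adjusted p = 0.00800) and by 1.89 ± 0.50 in flox MTX (adjusted p = 0.0262). Ccl9 rose by 3.11 ± 0.60 in KO (adjusted p = 0.00459) and by 2.01 ± 0.57 in flox MTX (adjusted p = 0.0333). Without flox replicate 3 neither gene was called in flox MTX, at 1.67 for Ccl6 (adjusted p = 0.112) and 1.79 for Ccl9 (adjusted p = 0.134).

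Ccr1, the receptor of Ccl3, Ccl5, Ccl6 and Ccl9 on monocytes and macrophages, was called higher in both contrasts with flox. Ccr1 was at 1.95, 2.01 and 5.22 CPM in flox, 8.16, 7.71 and 15.8 in KO, 6.38, 16.1 and 6.25 in flox MTX, and 10.7, 14.8 and 10.01 in KO MTX. The 9 other mice lay above the 3 flox mice. Ccr1 rose by 1.79 ± 0.50 in KO (adjusted p = 0.0206) and by 1.65 ± 0.50 in flox MTX (adjusted p = 0.0406). The call in flox MTX was lost without flox replicate 1 (1.42, adjusted p = 0.123), flox replicate 3 (1.42, adjusted p = 0.155) or flox MTX replicate 2 (1.06, adjusted p = 0.123). Macrophage marker sums in flox MTX replicate 4 (1234 CPM) lay inside the flox range, and their part in the Ccr1 values was not tested.

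Ccl5, Ccl9, Ccl6, Ccl3 and Ccl4 are neighbors on chromosome 11 (chr11:83525778-83664683, GRCm38), and 5 of 5 were called higher in KO, against 13.9% of all genes tested, and 3 in flox MTX, against 8.09%. The nearby cluster of Ccl2, Ccl7, Ccl11, Ccl12, Ccl8 and Ccl1 (chr11:82035571-82305690) had 3 of 5 tested genes called higher in KO and 1 in flox MTX.

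**Figure D4:**
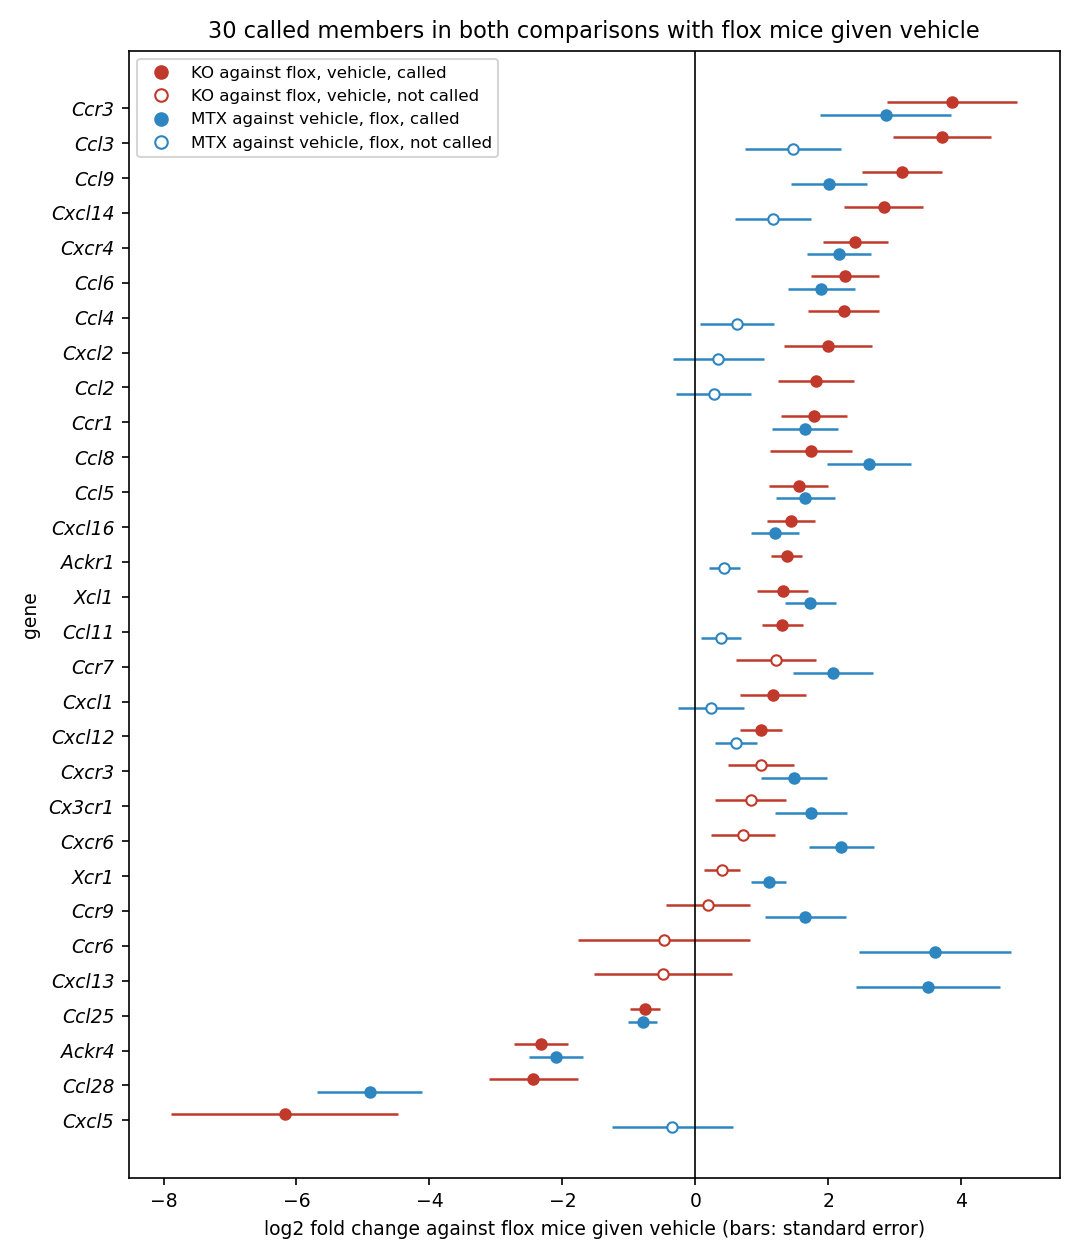
Log2 fold change with its SE (bars) of 30 called chemokine genes in KO against flox under vehicle and in MTX against vehicle in flox mice, with filled points for called genes. Both contrasts share the 3 flox mice. Ccr6 and Cxcl13 lay above 3 in flox MTX and below 0 in KO, Ccl3 was at 3.70 in KO and 1.47 in flox MTX, and the value of Cxcl5 in KO depends on counts of 0.

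Ccl11 and Ccl24 (eotaxins) share the receptor Ccr3, known from eosinophils. Ccl11, made in fat by stromal cells, was at 15.7, 15.2 and 31.9 CPM in flox, 64.4, 45.8 and 44.9 in KO, 34.2, 18.9 and 29.2 in flox MTX, and 42.9, 50.05 and 39.1 in KO MTX. Every mouse with the deletion lay above every mouse without it. Ccl11 rose in KO by 1.31 ± 0.31 (adjusted p = 0.00925) and differed by 0.39 ± 0.30 in flox MTX (adjusted p = 0.389), a difference that was 0.84 and called without flox replicate 4 (adjusted p = 0.0360). Ccl24 averaged 2.66, 3.73, 3.40 and 2.36 CPM in flox, KO, flox MTX and KO MTX and was not called (0.49 ± 0.40 in KO).

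Ccr3 was at 0.174, 0 and 0.277 CPM in flox, 1.86, 1.91 and 2.81 in KO, 0.378, 2.55 and 0.313 in flox MTX, and 3.39, 5.72 and 1.88 in KO MTX. The flox libraries held 4, 0 and 6 counts of it. All others lay above them in CPM, but not in counts, since flox MTX replicate 4 held 5. Ccr3 rose in KO by 3.86 ± 0.98 (adjusted p = 0.0137) and in flox MTX by 2.86 ± 0.99 (adjusted p = 0.0652), the latter not called without flox replicate 1 (3.004, adjusted p = 0.134), flox replicate 3 (2.26, adjusted p = 0.188) or flox MTX replicate 2 (1.23, adjusted p = 0.334). The 4 eosinophil markers summed to 0.590 to 1.61 CPM in flox, 1.56 to 2.11 in KO, 1.04 to 4.91 in flox MTX and 1.78 to 4.68 in KO MTX, with Epx at or under 3 counts in every library.

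Ccl8, in the mouse a ligand of Ccr8, reached its highest values in flox MTX replicates 1 and 2. It was at 4.56, 9.13 and 20.5 CPM in flox, 26.9, 37.4 and 49.8 in KO, 75.2, 116 and 17.8 in flox MTX, and 40.7, 35.1 and 31.1 in KO MTX. Replicate 4 of flox MTX again lay inside the flox range. Ccl8 rose by 2.61 ± 0.64 in flox MTX (adjusted p = 0.0186) and by 1.74 ± 0.62 in KO (adjusted p = 0.0567), the latter not called without flox replicate 1 (1.36, adjusted p = 0.156), flox replicate 3 (1.60, adjusted p = 0.150) or KO replicate 3 (1.51, adjusted p = 0.159). Ccr8 was not tested, with at most 5 counts in a library.

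Cxcl12, made by stromal and endothelial cells, and its receptor Cxcr4 both rose in KO. Cxcl12 was at 82.4, 105 and 88.5 CPM in flox, 205, 173 and 168 in KO, 171, 187 and 62.8 in flox MTX, and 228, 186 and 205 in KO MTX. KO and KO MTX lay above flox without overlap, and flox MTX lay on both sides of it. Cxcl12 rose in KO by 0.98 ± 0.32 (adjusted p = 0.0382), a call lost without flox replicate 1 (0.91, adjusted p = 0.110), and differed by 0.61 ± 0.32 in flox MTX (adjusted p = 0.196). Without flox MTX replicate 4, which lay below all flox mice, that difference was 0.97 and was called (adjusted p = 0.00984).

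Cxcr4, which holds leukocytes in tissue and marrow, was at 7.16, 10.6 and 8.31 CPM in flox, 40.4, 40.2 and 57.7 in KO, 17.8, 74.7 and 24.6 in flox MTX, and 54.2, 91.9 and 47.4 in KO MTX. All 9 other mice lay above the 3 flox mice. Cxcr4 rose by 2.40 ± 0.49 in KO (adjusted p = 0.00520) and by 2.17 ± 0.48 in flox MTX (adjusted p = 0.0132), and both calls held in each fit that left out 1 library. In flox MTX its change was 1.29 in the lowest of these fits. Ackr3, the atypical receptor that removes Cxcl12, was at 25.7, 28.7 and 45.4 CPM in flox, 49.4, 41.7 and 35.7 in KO, 55.7, 41.6 and 48.6 in flox MTX, and 36.2, 33.1 and 33.7 in KO MTX. Flox and KO overlapped, while each flox MTX mouse lay above each KO MTX mouse. Ackr3 differed from flox by 0.34 ± 0.21 in KO (adjusted p = 0.237). Without flox replicate 4 this was 0.64 and was called (adjusted p = 0.0168). In flox MTX, Ackr3 differed from flox by 0.55 ± 0.21 (adjusted p = 0.0896), which was under the fold limit and not called.

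Cxcl14, a chemokine of epithelium and stroma with no settled receptor, was at 2.52, 7.95 and 4.02 CPM in flox, 26.96, 20.9 and 55.8 in KO, 13.8, 14.9 and 3.81 in flox MTX, and 27.1, 46.5 and 23.6 in KO MTX. Each mouse with the deletion lay above each mouse without it. Cxcl14 rose in KO by 2.83 ± 0.59 (adjusted p = 0.00590).

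Neutrophil chemoattractants, the ligands of Cxcr2, were low, and in KO 2 of 3 tested ligands rose while Cxcl5 was called lower. The 7 neutrophil markers summed to 7.46 to 17.7 CPM in flox and 28.0 to 45.6 in KO. In flox MTX and KO MTX they summed to 30.1 to 81.9 and 28.3 to 44.2 CPM. Of 4 tested, 2 were called higher and 1 lower in KO, and 3 higher in flox MTX. Their part in the ligand values was not tested. Cxcl1 (KC) was at 0.868, 1.93 and 1.94 CPM in flox, 2.82, 3.22 and 4.64 in KO, 2.55, 1.86 and 1.13 in flox MTX, and 5.22, 3.21 and 1.49 in KO MTX. Cxcl2 (MIP-2) was at 0.347, 0.511 and 0.693 CPM in flox, 1.86, 1.31 and 3.05 in KO, 0.661, 1.14 and 0.125 in flox MTX, and 3.001, 2.69 and 0.874 in KO MTX. For both, KO lay above flox without overlap and flox MTX overlapped flox. Cxcl2 rose in KO by 1.99 ± 0.67 (adjusted p = 0.0445), a call lost without flox replicate 1 (1.78, adjusted p = 0.133), flox replicate 3 (1.99, adjusted p = 0.108) or KO replicate 3 (1.62, adjusted p = 0.153). Cxcl1 passed narrowly at 1.17 ± 0.49 (adjusted p = 0.0979). Its call was lost without any one of the 6 flox and KO libraries or KO MTX replicate 3, with changes of 0.88 (flox replicate 1), 1.34 (flox replicate 3), 1.35 (flox replicate 4), 1.34 (KO replicate 1), 1.25 (KO replicate 2), 0.94 (KO replicate 3) and 1.18 (KO MTX replicate 3) and adjusted p between 0.107 and 0.267.

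Cxcl5 was listed at 0.260, 0.629 and 0.323 CPM in flox (6, 16 and 7 counts), 0 in all 3 KO mice, 0.0472, 0.591 and 0.313 in flox MTX, and 0.130, 0.563 and 0.0437 in KO MTX. Against a floor of 3 counts per library it was at least 2.90-fold lower in KO than in flox, and it was called (adjusted p = 0.0250). Cxcr2 was not tested. It was at 0.130, 0 and 0 CPM in flox, 0.101, 0.0423 and 0.0937 in KO, 0.0472, 0.818 and 0.0625 in flox MTX, and 0.0870, 0.520 and 0.0437 in KO MTX, so that 18 and 12 of its 43 counts came from flox MTX replicate 2 and KO MTX replicate 3.

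Promoters of several of these ligands hold the letters of the kappaB consensus, the motif bound by NF-kappaB, which is why 4 stretches of genes called higher in KO are printed. RefSeq windows of GRCm38.p6 from 250 bases before to 50 after the gene start were searched on both strands, and the motif was found in 9 of 42 windows of tested chemokine genes (21.4%, 9 of 36 genes), against 4.51% of 32851 windows of all genes. Both are shares of windows of the same length, and overlapping matches in a window were counted once. The genes were Cxcl1, Cxcl2, Cxcl10, Ccl9, Ccl27a, Ccr3, Ccr6, Ccrl2 and Ackr2. The stretches lie at chr5:90891129-90891228 (Cxcl1, plus strand), chr5:90903757-90903856 (Cxcl2, plus strand), chr11:83578637-83578716 (Ccl9, minus strand) and chr9:124021747-124021846 (Ccr3, plus strand), with the match in capitals.
Cxcl1: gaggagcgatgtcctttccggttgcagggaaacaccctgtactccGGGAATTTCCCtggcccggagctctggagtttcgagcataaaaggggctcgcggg
Cxcl2: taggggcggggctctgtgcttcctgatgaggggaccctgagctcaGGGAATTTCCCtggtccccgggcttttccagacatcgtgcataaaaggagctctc
Ccl9: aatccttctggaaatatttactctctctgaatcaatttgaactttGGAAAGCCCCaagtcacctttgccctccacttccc
Ccr3: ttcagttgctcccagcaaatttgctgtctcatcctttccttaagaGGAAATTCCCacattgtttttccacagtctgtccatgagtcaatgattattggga
Cxcl10, Ccl27a, Ccrl2 and Ackr2, which also hold the motif, were not called in KO or in flox MTX. Ccr6, which holds it too, was not called in KO. The genes called higher in KO were thus 4 of these 9, against 38.8% of all tested chemokine genes. The printed stretches were picked by that call, and nothing is read from it about the motif. No binding was measured here, and a match is a description of letters.

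Interferon-induced ligands of Cxcr3, a receptor of activated T cells and NK cells, were not called in any group. Cxcl9 was at 23.9, 10.97 and 20.3 CPM in flox, 28.0, 24.9 and 28.3 in KO, 39.0, 21.7 and 30.01 in flox MTX, and 24.2, 21.8 and 56.0 in KO MTX. Cxcl10 was at 3.95, 2.67 and 3.601 CPM in flox, 3.68, 4.19 and 5.76 in KO, 3.21, 4.95 and 5.44 in flox MTX, and 5.002, 3.86 and 5.90 in KO MTX. For both, the spread within groups covered most of the range, although Cxcl9 in KO lay above flox. Cxcl11, listed as a polymorphic pseudogene, was at 1.21, 0.236 and 1.11 CPM in flox, 0.957, 0.212 and 0.141 in KO, 0.283, 0.545 and 1.38 in flox MTX, and 0.130, 0.130 and 0.350 in KO MTX. Of its exon bases, 41.7% overlap Gm2673 on the opposite strand, so that the reads of both cannot be told apart if strand was not used.

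Cxcr3 itself was at 1.87, 1.06 and 1.85 CPM in flox, 2.62, 3.35 and 3.47 in KO, 2.74, 8.64 and 1.94 in flox MTX, and 4.35, 6.50 and 5.33 in KO MTX. All 9 other mice lay above flox, flox MTX replicate 4 by little. Cxcr3 rose in flox MTX by 1.48 ± 0.50 (adjusted p = 0.0600), a call lost without flox replicate 1 (1.62, adjusted p = 0.103), flox replicate 3 (1.26, adjusted p = 0.205) or flox MTX replicate 2 (0.57, adjusted p = 0.241). Its ligands differed in flox MTX by 0.72 ± 0.38 (Cxcl9, adjusted p = 0.205), 0.41 ± 0.30 (Cxcl10, adjusted p = 0.353) and -0.24 ± 0.81 (Cxcl11, adjusted p = 0.861).

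Among the genes of lymphoid tissue, Cxcl13, which draws B cells into follicles through Cxcr5, had the widest range in CPM. It was at 12.5, 0.747 and 2.72 CPM in flox, 2.57, 6.10 and 2.62 in KO, 10.8, 94.2 and 74.7 in flox MTX, and 8.35, 68.2 and 25.1 in KO MTX. The libraries above 20 CPM were flox MTX replicates 2 and 4 and KO MTX replicates 3 and 4, the same 4 libraries in which B cell markers summed to 89.5 CPM or more, while no other library exceeded 54.8 CPM. Cxcl13 rose in flox MTX by 3.49 ± 1.08 (adjusted p = 0.0451), a call lost without flox replicate 3 (2.97, adjusted p = 0.137). Cxcr5 was at 7.03, 5.74 and 5.54 CPM in flox, 4.94, 6.35 and 4.83 in KO, 2.69, 16.3 and 9.25 in flox MTX, and 3.26, 16.0 and 7.87 in KO MTX. It was highest in the same 4 libraries, and its difference in flox MTX of 0.63 ± 0.60 was not called (adjusted p = 0.486) and was -0.03 without flox MTX replicate 2. The part of B cell RNA in these values was not tested.

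Ccr6, the receptor of Ccl20 on B cells and Th17 cells, was at 0.477, 0.157 and 0.139 CPM in flox, 0.0504, 0.169 and 0.328 in KO, 0.331, 7.36 and 1.88 in flox MTX, and 0.348, 3.81 and 1.53 in KO MTX. Its 4 highest libraries were again those with the highest B cell sums, while its ligand Ccl20 was at 0 counts throughout. Ccr6 rose in flox MTX by 3.61 ± 1.14 (adjusted p = 0.0482), a call lost without flox replicate 3 (3.34, adjusted p = 0.170) or flox MTX replicate 2 (2.06, adjusted p = 0.181).

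Ccr7, which leads dendritic cells and naive T cells to lymph nodes, was at 1.39, 1.10 and 1.80 CPM in flox, 3.17, 4.23 and 2.53 in KO, 2.46, 12.3 and 3.19 in flox MTX, and 3.91, 9.88 and 4.50 in KO MTX. Every other mouse lay above the flox mice. Ccr7 rose in flox MTX by 2.07 ± 0.61 (adjusted p = 0.0366), a call lost without flox replicate 3 (1.91, adjusted p = 0.138) or flox MTX replicate 2 (0.99, adjusted p = 0.131). Its ligand Ccl19 was at 0.347, 0.315 and 0.416 CPM in flox, 0.252, 0.466 and 0.609 in KO, 0.567, 0.727 and 0.188 in flox MTX, and 0.609, 0.433 and 0.524 in KO MTX, and was not called (0.49 ± 0.50 in flox MTX). Ccl21a, the other ligand, had 3 counts, all in KO replicate 3. Ccl19, Ccl21a and Ccl21b have near-identical copies, and their counts are uncertain.

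Cxcl16 and Cx3cl1 are both made as membrane proteins and act bound or shed. Cxcl16 was at 13.02, 10.7 and 14.4 CPM in flox, 28.2, 32.3 and 42.7 in KO, 24.3, 48.5 and 14.9 in flox MTX, and 40.7, 51.8 and 33.2 in KO MTX. All other mice lay above flox, with flox MTX replicate 4 nearest to it. Cxcl16 rose by 1.44 ± 0.36 in KO (adjusted p = 0.0130) and by 1.203 ± 0.36 in flox MTX (adjusted p = 0.0396), the latter not called without flox replicate 3 (1.09, adjusted p = 0.147) or flox MTX replicate 2 (0.64, adjusted p = 0.113). Zmynd15 overlaps 18.3% of its exon bases on the opposite strand. Cxcr6, its receptor on T cells and NKT cells, was at 1.30, 1.06 and 0.739 CPM in flox, 1.41, 1.91 and 1.78 in KO, 2.13, 8.95 and 3.19 in flox MTX, and 3.65, 3.94 and 3.63 in KO MTX. Each MTX mouse lay above each vehicle mouse of either genotype. Cxcr6 rose in flox MTX by 2.20 ± 0.48 (adjusted p = 0.0128), a call that held in every fit that left out 1 library, and differed by 0.71 ± 0.48 in KO (adjusted p = 0.288, and 0.72 with adjusted p = 0.0853 without flox MTX replicate 2).

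Cx3cl1 (fractalkine) was at 10.9, 16.4 and 9.28 CPM in flox, 6.85, 8.004 and 10.7 in KO, 4.11, 13.4 and 2.88 in flox MTX, and 9.27, 12.5 and 6.25 in KO MTX. It was highest in flox replicate 3, the library with the highest epididymal sum. Its difference in flox MTX was -0.84 ± 0.50 (adjusted p = 0.265), and without flox MTX replicate 2 it was -1.79 and called (adjusted p = 0.0237). Cx3cr1, its receptor on monocytes and macrophages, was at 2.17, 4.13 and 3.32 CPM in flox, 5.74, 4.07 and 7.36 in KO, 5.86, 22.0 and 4.19 in flox MTX, and 10.1, 9.01 and 9.003 in KO MTX. Flox and flox MTX did not overlap, and the nearest values were 4.13 and 4.19 CPM. Cx3cr1 rose in flox MTX by 1.74 ± 0.54 (adjusted p = 0.0457), a call lost without flox replicate 1 (1.52, adjusted p = 0.133) or flox MTX replicate 2 (0.66, adjusted p = 0.166).

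Xcl1, made by NK cells and CD8+ T cells, and Xcr1, its receptor on cross-presenting dendritic cells, were both called in flox MTX. Xcl1 was at 0.130, 0.118 and 0.231 CPM in flox, 0.403, 0.381 and 0.422 in KO, 0.520, 0.591 and 0.500 in flox MTX, and 0.609, 0.650 and 0.612 in KO MTX. The 4 groups did not overlap and stood in this order, on 3 to 15 counts per library, and 18.7% of its exon bases overlap Gm20743. Xcl1 rose by 1.73 ± 0.38 in flox MTX (adjusted p = 0.0124) and by 1.31 ± 0.38 in KO (adjusted p = 0.0272), the latter not called without flox replicate 3 (1.14, adjusted p = 0.109). Xcr1 was at 0.998, 0.983 and 1.15 CPM in flox, 1.26, 1.57 and 1.31 in KO, 2.08, 2.73 and 1.94 in flox MTX, and 1.96, 1.73 and 1.88 in KO MTX. Both MTX groups lay above both vehicle groups. Xcr1 rose in flox MTX by 1.10 ± 0.27 (adjusted p = 0.0177) and differed by 0.40 ± 0.27 in KO (adjusted p = 0.283).

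Ccl28, Ccl25 and Ackr4 were the genes called lower in both contrasts with flox. Ccl28, a ligand of Ccr10 secreted by mucosal and glandular epithelium, was at 7.07, 6.69 and 9.88 CPM in flox, 1.26, 2.84 and 0.234 in KO, 0.283, 0.136 and 0.375 in flox MTX, and 0.174, 0.0433 and 0.219 in KO MTX. Flox lay above every other mouse, and both MTX groups held 1 to 6 counts per library. Ccl28 fell by 2.44 on the log2 scale in KO (SE 0.67, adjusted p = 0.0191), and it fell by 4.90 in flox MTX (SE 0.79, adjusted p = 0.00498). Ccl25, a gut ligand of Ccr9, was at 7.72, 10.5 and 6.83 CPM in flox, 4.38, 4.74 and 5.72 in KO, 4.91, 4.45 and 5.13 in flox MTX, and 4.92, 4.20 and 4.89 in KO MTX. Ccl25 fell by 0.76 in KO (SE 0.22, adjusted p = 0.0246), and it fell by 0.79 in flox MTX (SE 0.22, adjusted p = 0.0307). Without flox replicate 3 its log2 fold changes were -0.56 in KO (adjusted p = 0.0951, under the fold limit) and -0.59 in flox MTX (adjusted p = 0.131), and neither was called.

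Ackr4, which removes Ccl19, Ccl21 and Ccl25, was at 23.9, 41.0 and 13.1 CPM in flox, 5.34, 4.91 and 5.34 in KO, 8.08, 6.54 and 3.50 in flox MTX, and 2.44, 1.65 and 2.62 in KO MTX. It fell by 2.32 in KO (SE 0.41, adjusted p = 0.00371), and it fell by 2.10 in flox MTX (SE 0.41, adjusted p = 0.00804), and both calls held in each fit that left out 1 library. Acad11 overlaps 8.90% of its exon bases on the opposite strand. Within flox, Ackr4, Ccl25 and Cxcl5 were highest in replicate 3, as was the epididymal marker sum (12105 CPM, against 4533 in replicate 1 and 1467 in replicate 4), while Ccl28 was highest in replicate 4. The part of epididymal RNA in these 4 genes was not tested, and since all 3 flox libraries hold it, it cannot be told apart from the group.

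The receptors of Ccl25 and Ccl28 were not called lower. Ccr9 was at 0.477, 0.669 and 0.416 CPM in flox, 0.705, 0.339 and 0.750 in KO, 0.520, 3.36 and 1.06 in flox MTX, and 0.696, 0.780 and 1.01 in KO MTX. It was high in 1 library, flox MTX replicate 2, and the call in flox MTX (1.66 ± 0.61, adjusted p = 0.0803) was lost without it (0.59, adjusted p = 0.409). The call was also lost without flox replicate 1 (1.60, adjusted p = 0.179), flox replicate 3 (1.88, adjusted p = 0.155), flox replicate 4 (1.53, adjusted p = 0.141) or KO replicate 1 (1.66, adjusted p = 0.102). Ccr10 averaged 0.933 CPM in flox, 0.700 in KO, 1.56 in flox MTX and 0.871 in KO MTX, and differed from flox by -0.42 ± 0.57 in KO and 0.72 ± 0.56 in flox MTX, neither called.

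Of the atypical receptors, Ackr1, which carries chemokines across venular endothelium, was the only one of 5 called higher in KO. It was at 2.52, 3.11 and 2.45 CPM in flox, 6.80, 7.75 and 6.37 in KO, 4.53, 3.54 and 2.81 in flox MTX, and 6.87, 6.28 and 5.64 in KO MTX. Mice with the deletion lay above mice without it at either treatment. Ackr1 rose in KO by 1.37 ± 0.24 (adjusted p = 0.00348). In the same contrast 8 of 10 endothelial markers were called higher, and Cadm3 overlaps 25.7% of the exon bases of Ackr1 on the same strand. Ackr2, which removes inflammatory CC ligands, averaged 3.23, 5.86, 3.98 and 4.31 CPM in flox, KO, flox MTX and KO MTX, and Ccrl2, which binds chemerin, averaged 3.66, 6.03, 4.43 and 7.65 CPM. Neither was called.

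The remaining tested genes were not called in any comparison. Ccl17 and Ccl22, ligands of Ccr4 made by dendritic cells and macrophages, ranged from 0 to 2.16 CPM (Ccl17, highest in flox replicate 3) and from 1.25 to 3.77 CPM (Ccl22, highest in KO MTX replicate 3) over the 12 libraries. Ccr4, carried by T cells, ranged from 0.0393 to 1.05 CPM and was highest in flox MTX replicate 2. Ccl27a, a skin ligand of Ccr10 with a near-identical copy in Ccl27b, ranged from 3.45 to 10.2 CPM and was highest in flox replicate 3. The 15 genes too low to test were Ccl1, Ccl19-ps1, Ccl19-ps3, Ccl20, Ccl21a, Ccl21b, Ccl26, Ccl27b, Ccr1l1, Ccr8, Cxcl3, Cxcl15, Cxcl17, Cxcr1 and Cxcr2.

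The question whether the deletion changed the chemokine genes under MTX was addressed by KO MTX against flox MTX. No chemokine gene was called by edgeR, where 0.0% of all genes were called, and 9 of 49 were called by DESeq2, where 14.8% of all genes were called. At an unadjusted p below 0.05 there were 12 (24.5%), the same share as among all genes (24.5%), and the groups did not overlap in either direction for 12 (24.5%), against 26.8% of all genes. Among the 12 with p below 0.05 were the ligands Ccl3, Ccl4, Ccl6, Ccl9, Ccl11, Cxcl2 and Cxcl14, and the smallest adjusted p was 0.109. The count turned on flox MTX replicate 2. Without it 17 chemokine genes were called (15 higher and 2 lower in KO MTX), when 4064 of 19532 genes were called in all. Without flox replicate 3, which is in neither group of this contrast, 2 were called (Ackr1 and Ackr4), when 1028 of 19024 genes were called in all.

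MTX against vehicle in KO mice gave no called chemokine gene in edgeR, where 0.0% of all genes were called, and 1 in DESeq2 (Ccl28), where 1.5% of all genes were called. At an unadjusted p below 0.05 there were 6 (12.2%), against 7.97% of all genes, namely Ackr4, Ccl28, Ccr6, Cxcl5, Cxcl13 and Cxcr6. Without KO replicate 3, Ccl28 was called. The levels of Ccl2, Ccl3, Ccl4, Ccl6 and Ccl9 in KO MTX overlapped those in KO or lay above them.

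Whether the response to MTX differed between genotypes was tested as an interaction. No chemokine gene was called by edgeR, against 0.989% of all genes, and 1 was called by DESeq2 (Ccl8), against 6.67% of all genes. An unadjusted p below 0.05 was found for 6 (12.2%), against 15.0% of all genes, namely Ackr3, Ccl5, Ccl8, Ccl25, Cxcl5 and Cxcr4. The interaction was negative for 40 of the 49, with a median of -0.62 on the log2 scale against -0.05 over all genes. A negative value means that the signed log2 fold change of MTX against vehicle was lower in KO than in flox mice. The interaction was positive for 9, and the share of each sign over all genes is not given here. Median interactions of marker lists were -1.32 (macrophage), -1.25 (fibroblast), -1.22 (monocyte) and -1.58 (mesothelial). Those of the epididymal and testis germ cell lists were positive, at 4.04 and 10.5. The part of these lists in the chemokine values was not tested. Without flox replicate 4, Ccl8 and Ackr3 were called.

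Chemokine receptors signal through inhibitory G proteins, phosphoinositide 3-kinase gamma, Rac exchange factors and arrestins, and 40 such genes, with genes of ligand processing, were taken from a list. In KO against flox, 19 of the 40 were called higher, against 13.9% of all genes tested, and 3 lower, against 17.8%. Rgs1, which ends G protein signaling in leukocytes, rose by 4.37 ± 0.88 (adjusted p = 0.00508), the beta-arrestin Arrb2 by 1.96 ± 0.31 (adjusted p = 0.00301) and the platelet chemokine Pf4 by 2.09 ± 0.42 (adjusted p = 0.00509). Dpp4, the peptidase that trims Cxcl12 and other ligands, fell by 0.96 (SE 0.27, adjusted p = 0.0225), and Gnai1 and Jak2 fell as well. In flox MTX against flox, 17 were called higher, against 8.09% of all genes, and 0 lower, against 16.1%. Among those called higher were Rgs1 (2.17 ± 0.81, adjusted p = 0.0846), Arrb2 (1.22 ± 0.30, adjusted p = 0.0191) and Pf4 (1.25 ± 0.41, adjusted p = 0.0544). None of the 40 was called in KO MTX against flox MTX, in KO MTX against KO or in the interaction.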

How the data were processed

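RNA of eWAT was isolated with TRIzol and sequenced in 12 libraries, 1 per mouse. The authors trimmed reads (Trimmomatic 0.36), aligned them with STAR 2.5.2b to GRCm38 and obtained gene counts by featureCounts (Subread 1.5.2, Ensembl identifiers). The deposited values are read counts per gene without normalization. The strand setting and the use of multiply mapped reads are not given in the sources used here, and the labels name polyA RNA where the methods name ribodepletion.

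The main test was edgeR 4.0.16 (R 4.3.3) on all 12 libraries, using TMM scaling, filterByExpr, a coefficient for each group and quasi-likelihood tests, and p-values were adjusted by Benjamini-Hochberg across 18702 genes. CPM, marker sums included, were scaled with TMM factors. Log2 fold changes carry SE, means carry SD (n = 3). p-values measure the spread between these mice. Exact two-sided permutation of 3 against 3 cannot go below 0.1 and is not quoted. Gene positions come from GENCODE M21 (GRCm38). The fits were tested on simulated counts.

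The members, pairs, marker lists and tests were chosen with earlier results of these data known. Values in each library are given for members called in a comparison and for pairs on the axes of Ccr2, Ccr1, Ccr7, Cxcr2, Cxcr3, Cxcr4, Cxcr5, Cxcr6 and Cx3cr1. Of the other members and the signaling list, examples were chosen after their values were seen. Some genes that entered the counts are not reported here by name. Same replicate numbers showed no sign of pairing mice (12 pairs, median residual correlation 0.035, 3 over 0.1, against 0.011 and 13 over 0.1 for 42 other pairs). These correlations cannot exclude sets of cage mates or littermates, which the study states it used. No libraries were duplicates. Other settings tried were leaving out each library, DESeq2 1.42.0, scaling by RLE or by library size, dropping the filter or asking for 10 counts per library, blocking on the replicate number, fitting a contrast on its own 6 libraries, and other limits for a call.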

Additional observations from a re-analysis of the deposited data

How the results depend on the processing

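Of 1173 alternative values of 63 single-gene fold changes, 1076 kept their direction and their side of the threshold, 85 lost a call and 7 gained one, and 5 of uncalled differences changed sign. These 5 were Ccr9 in KO against flox without KO replicate 3 (-0.00256, in a range from -0.00256 to 0.49 over single libraries left out), Cxcl11 in flox MTX against flox without flox replicate 1 (0.12), flox replicate 4 (0.0053) or flox MTX replicate 1 (0.15, in a range from -1.02 to 0.15), and Cxcr5 in flox MTX against flox without flox MTX replicate 2 (-0.028, in a range from -0.028 to 1.07). The count of 23 called in KO against flox stayed within 1.5 times of itself in every setting (18 to 28 with 1 library left out). The count of 21 in flox MTX against flox became 9 with the replicate block, which moved no other count by over 1.5 times, 4 with its 6 libraries alone and 8 to 25 with 1 library left out (lowest without flox replicate 3, highest without flox MTX replicate 4). Over all genes, calls in this contrast went from 4528 to 2771 with the replicate block and to 2167 with its 6 libraries alone. The count of 0 in KO MTX against flox MTX became 9 in DESeq2, 2 with no filter, 2 when each library had to hold 10 counts, 3 without both libraries of the highest B cell sums (chosen after seeing the data) and 0 to 17 with 1 library left out. The count of 0 in KO MTX against KO became 1 in DESeq2 and 0 to 1 with 1 library left out, and that of the interaction 1 in DESeq2 and 0 to 2. Where no cause is shown by the setting itself, the cause was not tested. Under scaling by library size alone the median log2 fold change of all genes moved from 0.05 to -0.15 in flox MTX against flox and from -0.05 to 0.12 in KO MTX against flox MTX. Whether replicate numbers mark sets of mice is not known, so the block is given as a setting and not as a stricter test. Low counts limit Xcl1, Ccr3, Cxcl5 and Ccr6.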

Other observations

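Marker lists other than those of macrophages and B cells also held genes called against flox, and their part in the chemokine values was not tested. In KO against flox, 7 of 8 fibroblast markers were called higher and 1 lower, and 6 of 7 proliferation markers were called higher. So were 3 of 13 T cell and NK cell markers, 4 of 6 dendritic cell markers (1 was lower) and 1 of 7 mesothelial markers. Of 9 adipocyte markers, 2 were called lower. Over all genes tested, 13.9% were called higher and 17.8% lower in that contrast. The mesothelial and adipocyte calls are near these shares, and nothing is read from them. In flox MTX against flox, 5 of 8 fibroblast markers, 3 of 7 proliferation markers and 9 of 13 T cell and NK cell markers were called higher. So were 4 of 5 monocyte markers, 1 of 6 dendritic cell markers and 6 of 7 mesothelial markers. Over all genes tested, 8.09% were called higher in that contrast, and nothing is read from the 1 dendritic cell marker. Of the 5 monocyte markers, 0 were called in KO against flox. T cell and NK cell markers summed to 13.7 to 27.8 CPM in flox, 31.04 to 50.4 in KO, 36.7 to 124 in flox MTX and 52.5 to 101 in KO MTX, and mesothelial markers to 88.3 to 173, 145 to 211, 233 to 474 and 126 to 263 CPM. Of the 49 tested chemokine genes, 14 had their highest value in flox MTX replicate 2, 8 in KO MTX replicate 3 and 6 each in flox replicate 3 and KO replicate 3.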
